A study of Mus musculus with 6 samples.

Results

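The common gamma chain, encoded by Il2rg, is a receptor subunit that several interleukins share. It was followed here with its partner chains, the receptor chains of interleukins 10 and 13, the ligand gene Il15 and the kinase gene Jak3. The 10 genes (Il2rg, Il4ra, Il7r, Il21r, Il15ra, Il15, Jak3, Il10ra, Il10rb and Il13ra1) were taken by name from a table of 17119 gene symbols. All 10 had a row and passed the filter on low counts. The set was proposed after Il2rg had been seen among the falls, so it was in part selected on the counts of this same contrast, and the differences are given as a description. The p-values below come from a fit over all 12706 tested genes, and nothing is supported by them.

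RNA was sequenced from whole liver of 6 mouse samples after 12 weeks on a high-fat high-cholesterol diet (HFHCD), which brings on fatty liver with inflammation. The 3 samples of the group WT carried Clec4f-iCre;Cebpb+/+ and were littermates of the 3 samples of the group Hete, with Clec4f-iCre;Cebpbfl/+. All animals thus carried the recombinase, whose Clec4f promoter drives expression in Kupffer cells, macrophages that reside in the liver; hepatocytes and other cells without it keep both copies of Cebpb, the gene of the transcription factor C/EBPβ. The genotype labels of replicates 2 and 3 write Clec5f and Clec6f in place of Clec4f, and the series design was followed. The WT livers are called wild-type and the Hete livers heterozygous below. Libraries held 16895322 to 17750755 counts. The labels do not say that each sample is a separate animal, so the p-values cover only sample-to-sample spread, which may be technical.

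The unit CPM stands for read counts brought to a common library size with TMM factors. The targeted gene Cebpb had levels of 505, 308 and 340.2 CPM in the wild-type group, replicates 1 to 3, and 204, 498 and 269 CPM in the heterozygous group. These values overlapped, and whole liver holds Cebpb RNA of cells that keep both copies, so they check the labels only weakly. The hepatocyte gene Alb measured 66211 to 95153 CPM, in keeping with the tissue label. In bulk liver, fewer cells of a type and less RNA per cell cannot be told apart.

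As background, interleukins 2, 4, 7, 9, 15 and 21 signal through the gamma chain joined to a private chain, and JAK3 is the kinase bound to the gamma chain. Interleukin 15 is presented to neighbouring cells on its own receptor chain IL-15Rα and sustains natural killer and memory T cells, including those of the liver. IL-4Rα pairs with the gamma chain on leukocytes or with IL-13Rα1 on many other cells, where the pair also binds interleukin 13. IL-10RA and IL-10RB belong to a different receptor class, lack the gamma chain and pass on the inhibitory signal of interleukin 10 in macrophages.

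Promoter windows are shown for the gamma chain gene and for the 2 partner chains whose libraries did not overlap between the groups, because Cebpb, which lost 1 copy in Kupffer cells, encodes a factor that binds DNA. RefSeq windows of the build GRCm38.p6 were matched for 7 of the 10 genes (Il2rg, Il4ra, Il7r, Il21r, Il15ra, Jak3 and Il13ra1), and the authors' counts are on GRCm39. Each line gives the 250 bases before the annotated start, 5′ to 3′ on the gene's strand, and capitals mark matches to the motifs named below.
Il2rg, chrX:101268256-101268505, minus strand: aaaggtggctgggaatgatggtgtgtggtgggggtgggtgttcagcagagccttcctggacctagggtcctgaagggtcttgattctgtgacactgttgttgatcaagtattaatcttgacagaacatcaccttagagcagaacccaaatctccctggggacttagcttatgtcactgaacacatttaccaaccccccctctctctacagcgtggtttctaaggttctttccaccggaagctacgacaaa
Il21r, chr7:125603179-125603428, plus strand: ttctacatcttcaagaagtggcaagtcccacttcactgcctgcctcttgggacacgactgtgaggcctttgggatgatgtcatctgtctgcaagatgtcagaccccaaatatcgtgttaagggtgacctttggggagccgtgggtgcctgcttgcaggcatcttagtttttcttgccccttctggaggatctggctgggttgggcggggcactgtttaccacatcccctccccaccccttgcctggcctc
Il7r, chr15:9529877-9530126, minus strand: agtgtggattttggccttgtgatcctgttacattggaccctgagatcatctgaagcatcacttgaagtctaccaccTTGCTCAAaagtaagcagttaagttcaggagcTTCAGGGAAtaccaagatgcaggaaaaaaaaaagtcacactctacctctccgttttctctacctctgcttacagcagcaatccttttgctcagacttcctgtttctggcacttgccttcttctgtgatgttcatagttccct
Both strands were searched for the C/EBP letters TTGCNNAA, the STAT letters TTCNNNGAA and the ETS letters GAGGAA. The Il7r window held 1 match to the first, 174 bases before the start, and 1 to the second, 142 bases before it, and these do not overlap. The Il2rg and Il21r windows held none of these 3 exact strings of letters. Other forms of the motifs were not searched. Among the 7 genes with windows, the C/EBP and STAT letters were found in Il7r alone and the ETS letters in Il15ra alone. Of 32851 windows of this length, 9.56% held the C/EBP letters, 7.02% the STAT letters and 23.3% the ETS letters. A match is a description of the letters and not a site.

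The comparison of heterozygous with wild-type livers asks how these receptor genes stand when Kupffer cells keep 1 copy of Cebpb. All 10 genes had a negative log2 fold change (heterozygous over wild-type), from −1.68 for Il2rg to −0.18 for Il4ra, with a median of −0.57; over all tested genes the median was 0.0048 and 49.0% were negative. In 5 of the 10 (Il2rg, Il21r, Il7r, Il10ra and Il10rb) every heterozygous library lay below every wild-type library, as in 11.3% of all tested genes. Past an edgeR adjusted p of 0.05 was 1 of the 10, Il2rg, beside 0.559% of all genes called lower; 0 of the 10 were called higher, beside 0.0236%. DESeq2 called 4 of the 10 lower (3.36% of its 13113 genes) and limma-voom 0 (0.354% of genes). Because the genes were picked with this contrast in view, the counts are not read against those shares.

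**Figure D1:**
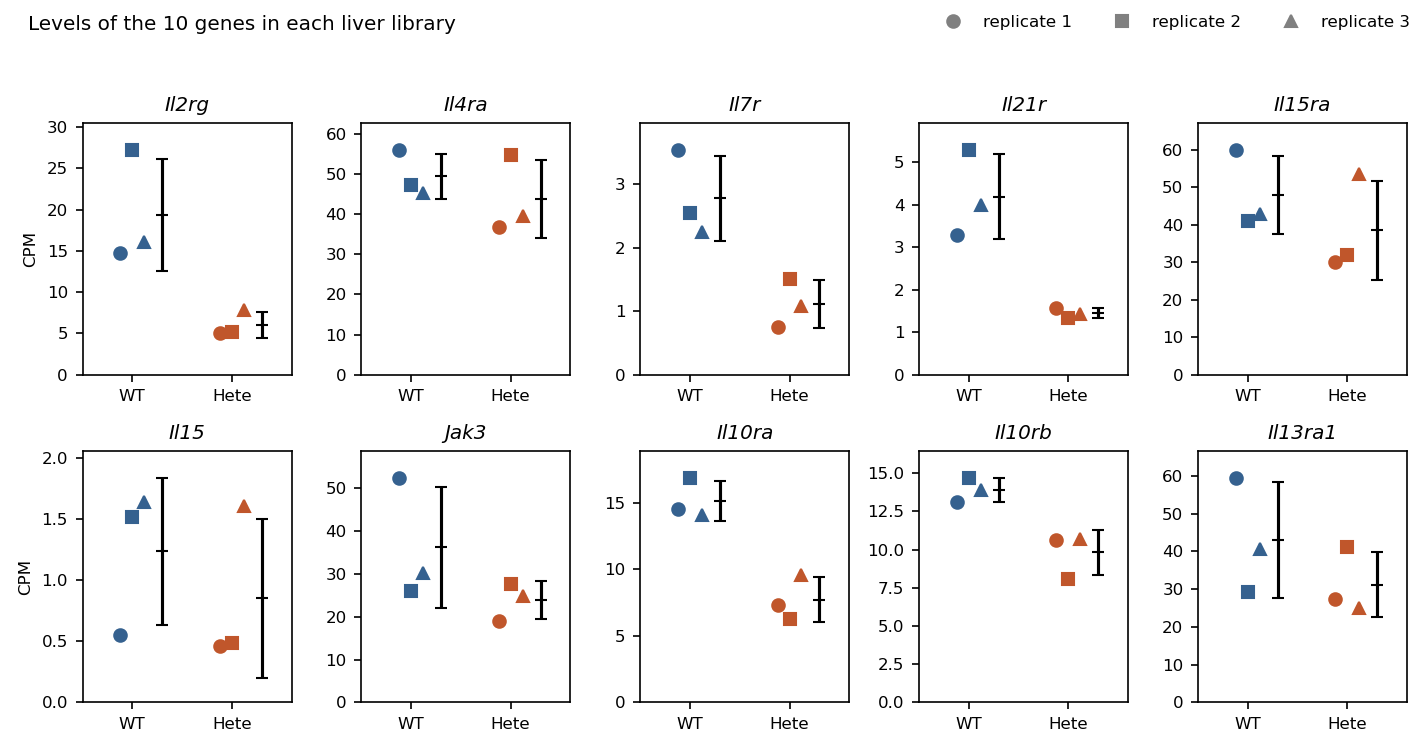
Level in CPM (vertical axes, linear from 0) of each of the 10 genes in wild-type (WT, blue) and heterozygous (Hete, orange) livers; symbols mark replicates, and bars to the right of each group show the mean and SD of 3 libraries. The groups are apart for Il2rg, Il7r, Il21r, Il10ra and Il10rb and overlap for the other 5.

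For Il2rg the wild-type libraries gave 14.8, 27.2 and 16.1 CPM (replicates 1, 2 and 3) and the heterozygous libraries 5.01, 5.21 and 7.85 CPM. Wild-type replicate 2 was the highest of all, and the highest heterozygous library stayed below the lowest wild-type one. The means were 19.3 ± 6.83 and 6.02 ± 1.59 CPM (SD, n = 3 each), a 3.21-fold fall (log2 fold change −1.68 ± 0.28 SE, 95% interval −2.33 to −1.04, edgeR adjusted p = 0.0494). This call sat at the edge of the threshold, 73rd by p among the 12706 genes, of which 74 passed. It was lost without wild-type replicate 1, 2 or 3 (edgeR adjusted p = 0.0521, 0.0998 and 0.0686), without heterozygous replicate 1 or 2 (0.218 and 0.198), with both wild-type replicate 1 and heterozygous replicate 2 left out (0.128), with RLE scaling (0.0513), in limma-voom (0.0649) and with the replicate number as a block (0.177), while the fold change stayed between −1.92 and −1.35 in every fit run. In the GENCODE M21 annotation, 30.5% of the Il2rg exon bases are shared with the protein-coding gene Gm20489 on the same strand. The Il2rg level is therefore uncertain: a counter may drop or split shared reads.

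Among the partner chains, Il21r, the private chain of the interleukin 21 receptor on lymphocytes, measured 3.29, 5.27 and 3.99 CPM in wild-type and 1.57, 1.33 and 1.43 CPM in heterozygous livers. The heterozygous libraries were close together and the groups were far apart (log2 fold change −1.53 ± 0.27, edgeR adjusted p = 0.0510). Il7r, the interleukin 7 receptor chain of T cells and innate lymphoid cells, lay at 3.54, 2.56 and 2.24 CPM against 0.757, 1.51 and 1.09 CPM, again without overlap (−1.31 ± 0.34, edgeR adjusted p = 0.122). These low levels rest on 13 to 97 counts per library for the 2 genes. Il21r (adjusted p = 0.000938) and Il7r (0.0475) passed in DESeq2, and Il21r also in edgeR with no filter on low counts (0.0252). Over all 12 alternatives the adjusted p from edgeR, DESeq2 and limma-voom reached 0.218 for Il21r and 0.402 for Il7r.

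Il4ra, the chain that binds interleukin 4, was high and nearly level, at 55.9, 47.2 and 45.4 CPM in wild-type and 36.9, 54.8 and 39.5 CPM in heterozygous livers. Heterozygous replicate 2 lay within the wild-type range. The difference was smaller than the spread between libraries (−0.18 ± 0.16, 95% interval −0.55 to 0.19, edgeR adjusted p = 0.738). Il15ra, which holds interleukin 15 for presentation, showed 59.9, 40.9 and 43.0 CPM against 30.0, 31.9 and 53.6 CPM, with heterozygous replicate 3 inside the wild-type range (−0.31 ± 0.26, 95% interval −0.91 to 0.28, edgeR adjusted p = 0.705).

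The ligand gene Il15 had 8 to 30 counts per library, or 0.549, 1.52 and 1.64 CPM in wild-type and 0.466, 0.484 and 1.605 CPM in heterozygous livers. Wild-type replicate 1 and heterozygous replicates 1 and 2 were low, so the groups overlapped, and no difference was detectable at this depth (−0.54 ± 0.59, 95% interval −1.87 to 0.79, edgeR adjusted p = 0.792). Leaving out 1 library in turn moved the log2 fold change from −1.38 (without heterozygous replicate 3) to −0.23 (without heterozygous replicate 1). Jak3, the kinase gene, measured 52.4, 26.0 and 30.2 CPM in wild-type and 19.0, 27.7 and 24.8 CPM in heterozygous livers. Wild-type replicate 1 set the higher wild-type mean, and heterozygous replicate 2 was above wild-type replicate 2 (−0.60 ± 0.28, 95% interval −1.26 to 0.06, edgeR adjusted p = 0.434). Without wild-type replicate 1 its log2 fold change was −0.22.

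Il10ra, the ligand-binding chain of the interleukin 10 receptor, stood at 14.6, 16.9 and 14.1 CPM in wild-type and 7.33, 6.30 and 9.57 CPM in heterozygous livers. Its wild-type libraries differed little, with a coefficient of variation of 9.83%, and all lay above the heterozygous ones (1.96-fold, −0.97 ± 0.18, edgeR adjusted p = 0.0539). The gene passed in 3 of 12 alternatives: DESeq2 (adjusted p = 0.00117), edgeR with no filter on low counts (0.0275) and edgeR without heterozygous replicate 3 (0.0397). In the other fits of edgeR and limma-voom its adjusted p ran from 0.0580 to 0.238. Il10rb, the second chain, which the interleukin 22 and type III interferon receptors also use, showed 13.1, 14.7 and 13.9 CPM against 10.7, 8.11 and 10.7 CPM. The groups were apart, but by less than for Il10ra (−0.50 ± 0.16, edgeR adjusted p = 0.185). Il13ra1 ranged widely, at 59.4, 29.2 and 40.6 CPM in wild-type and 27.4, 41.2 and 25.0 CPM in heterozygous livers, and the groups overlapped (−0.46 ± 0.30, 95% interval −1.17 to 0.25, edgeR adjusted p = 0.606).

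**Figure D2:**
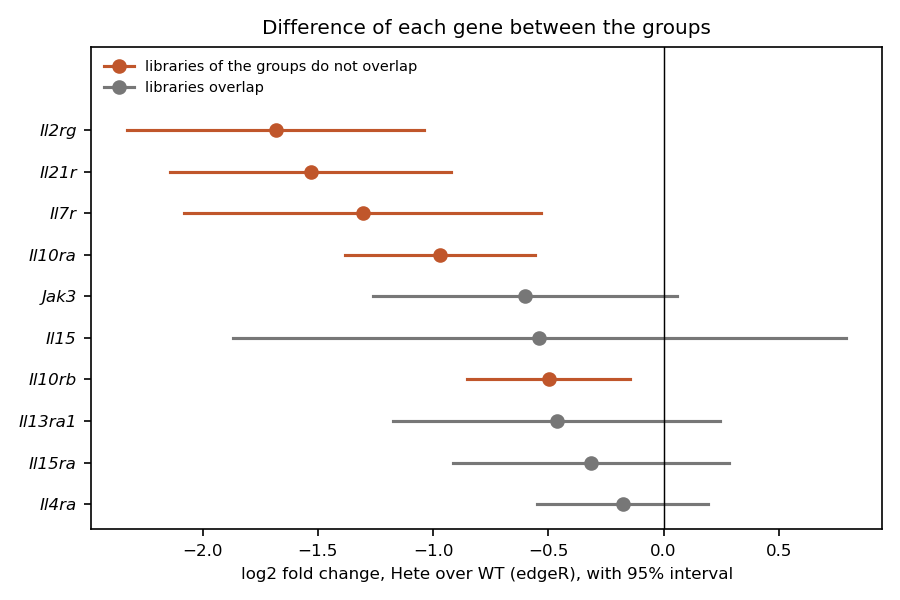
Log2 fold change of heterozygous over wild-type livers (horizontal axis) for each gene, with 95% intervals from the edgeR fit over all genes. Orange marks the 5 genes whose libraries do not overlap between the groups; their intervals lie below 0, while those of the 5 grey genes include it.

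Per length of their merged exons in GENCODE M21, the genes could be compared with each other. In wild-type livers Il13ra1 (11.6 ± 4.11 CPM per kb), Il15ra (10.8 ± 2.34), Il4ra (8.25 ± 0.94), Il2rg (8.10 ± 2.86) and Jak3 (6.76 ± 2.64) formed an upper range (mean ± SD, n = 3) in which the libraries of neighbouring genes overlapped. Il10ra (4.33 ± 0.43) and Il10rb (3.65 ± 0.21) followed without overlap, then Il21r (1.26 ± 0.30), Il7r (0.596 ± 0.145) and Il15 (0.547 ± 0.265), of which the last pair overlapped. Shared exon bases limit such comparisons: 14.9% of the Il10rb exon bases are shared with Gm21970 and 7.55% of those of Jak3 with Insl3, both on the same strand. In heterozygous livers the Il2rg level of 2.52 ± 0.67 CPM per kb was next to Il10rb (2.58 ± 0.39) and Il10ra (2.21 ± 0.48), and below Jak3 (4.45 ± 0.83) and Il4ra (7.29 ± 1.61).

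The partner chains were also set against the shared chain within each library. The ratio of Il4ra to Il2rg, in CPM, was 3.79, 1.74 and 2.82 in wild-type and 7.37, 10.5 and 5.04 in heterozygous livers, and that of Il15ra to Il2rg was 4.06, 1.504 and 2.67 against 5.99, 6.13 and 6.83. Both ratios were higher in every heterozygous library. For Il21r the ratio to Il2rg was 0.223, 0.194 and 0.248 against 0.314, 0.256 and 0.182, and for Il7r 0.240, 0.0940 and 0.139 against 0.151, 0.291 and 0.139, so these chains kept an overlapping ratio to Il2rg. These ratios restate the levels above and were not tested.

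Leukocyte markers were lower in the heterozygous livers too. Of 5 genes found across leukocytes (Ptprc, Laptm5, Coro1a, Cd53 and Arhgdib), 5 were tested and 5 were lower without overlap between the groups. Past the edgeR threshold as lower were 4, beside 0.559% of all genes. Ptprc did not pass, at −1.05 ± 0.24 (edgeR adjusted p = 0.0938). The summed level of the 5 ran from 134 to 178 CPM in wild-type and from 63.4 to 76.5 CPM in heterozygous livers. Of 8 monocyte and macrophage markers, 8 were tested and 8 had a negative log2 fold change, 7 of them without overlap. Past the threshold were 3 (Ccr2, Lyz2 and Cd68). Over all tested genes, 49.0% had a negative log2 fold change and 11.3% were lower without overlap. The 8 markers summed to 365 to 693 against 157 to 193 CPM. Neutrophil markers (4 of 6 tested, 4 negative, 1 past the threshold, Csf3r) summed to 22.2 to 28.7 against 7.16 to 12.0 CPM. Ly6g, a defining gene, had 1 count in each wild-type library and 0 in each heterozygous one.

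Lymphocytes carry most gamma chain receptors, and 0 of their markers passed the threshold. With 0.559% of all tested genes called lower, 0 among so few markers is not read as a result. Negative log2 fold changes were found in 8 of 8 T cell, 4 of 4 natural killer and innate lymphoid and 4 of 5 B and plasma cell markers. Without overlap were 5, 1 and 1 of them. The shares over all tested genes were 49.0% negative and 11.3% lower without overlap. T cell markers (8 of 9 tested) summed to 21.1 to 32.1 against 13.98 to 16.5 CPM, with 5 lower and 0 higher at an unadjusted p under 0.05 (9.0% and 4.20% of all genes), and natural killer and innate lymphoid markers (4 of 8 tested) to 7.38 to 10.005 against 5.27 to 6.05 CPM, with 1 lower. B and plasma cell markers (5 of 7 tested, 1 lower at an unadjusted p) overlapped, at 20.8 to 45.9 and 13.97 to 21.0 CPM. Dendritic cell markers (7 of 7 tested, 5 lower at an unadjusted p) summed to 34.6 to 37.8 against 12.9 to 27.1 CPM, and Kupffer cell markers (6 of 7 tested, 4 lower at an unadjusted p) to 174 to 369.8 against 88.0 to 128 CPM. Hepatocyte marker sums overlapped (86173 to 117530 and 95568 to 117970 CPM), as did endothelial ones (174 to 200.4 and 188 to 247 CPM), while stellate cell sums were 386 to 487 against 279.6 to 371 CPM. The part of these cell types in the receptor values was not tested.

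Relative to Ptprc, which encodes the leukocyte antigen CD45, Il2rg was still lower. The ratio of Il2rg to Ptprc was 0.607, 0.750 and 0.780 in wild-type and 0.439, 0.460 and 0.477 in heterozygous livers, without overlap. The same held against Coro1a, Cd53 and Arhgdib, whereas against Laptm5 the groups overlapped (0.261 to 0.380 and 0.175 to 0.288). Against the summed T cell, natural killer, B cell and dendritic cell markers the Il2rg ratio was likewise lower in every heterozygous library. Against monocyte and macrophage markers it overlapped, at 0.0404, 0.0392 and 0.0361 in wild-type and 0.0320, 0.0295 and 0.0406 in heterozygous livers. Heterozygous replicate 3 lay above every wild-type library there, and heterozygous replicates 1 and 2 lay below. The Il2rg ratio overlapped against Kupffer cell and neutrophil markers too. Il21r overlapped relative to Ptprc. Against the summed T cell, natural killer and B cell markers it was lower in every heterozygous library (T cell markers, 0.135 to 0.190 against 0.0894 to 0.102). Against the pan-leukocyte, Kupffer cell, monocyte and macrophage, neutrophil and dendritic cell sums Il21r overlapped. Il10ra kept its ratio to Ptprc, with 0.599, 0.465 and 0.682 against 0.643, 0.556 and 0.582. Il4ra and Il15ra were higher relative to Ptprc in every heterozygous library than in every wild-type one. Against the summed T cell, natural killer and B cell markers both overlapped. Il10rb overlapped relative to Ptprc and to the T cell, natural killer, B cell and Kupffer cell sums. Against the pan-leukocyte, monocyte and macrophage, neutrophil and dendritic cell sums Il10rb was higher in every heterozygous library.

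**Figure D3:**
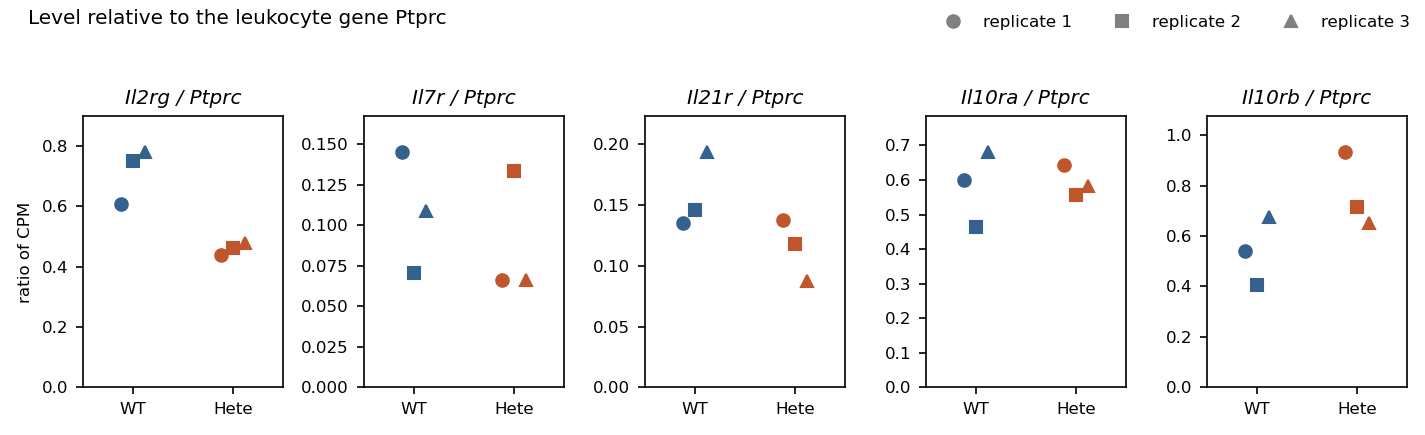
Ratio of the CPM of 5 receptor genes to that of Ptprc (vertical axes, linear from 0) in each wild-type (WT, blue) and heterozygous (Hete, orange) library, with symbols for replicates. The groups are apart for Il2rg and overlap for Il7r, Il21r, Il10ra and Il10rb.

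Within the groups the genes did not vary together. Il4ra, Il7r, Jak3 and Il13ra1 each had their highest wild-type value in replicate 1 and their highest heterozygous value in replicate 2. Those libraries also had the highest Cebpb of their groups (505 and 498 CPM) and the highest Socs3, a feedback inhibitor of cytokine signalling (48.1 and 101 CPM, against 4.07 to 21.4 CPM in the other 4). Their hepatocyte marker sums were the highest of their groups too (117530 and 117970 CPM). Il2rg, Il21r, Il10ra and Il10rb instead peaked in wild-type replicate 2, which also held the highest Ptprc (36.3 CPM). In the heterozygous group Il2rg, Il10ra and Il10rb peaked in replicate 3, as did Ptprc (16.5 CPM), and Il21r in replicate 1. Il15ra peaked in wild-type replicate 1 and Il15 in wild-type replicate 3, and both in heterozygous replicate 3. This grouping was noticed after the values were seen and was not tested.

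**Figure D4:**
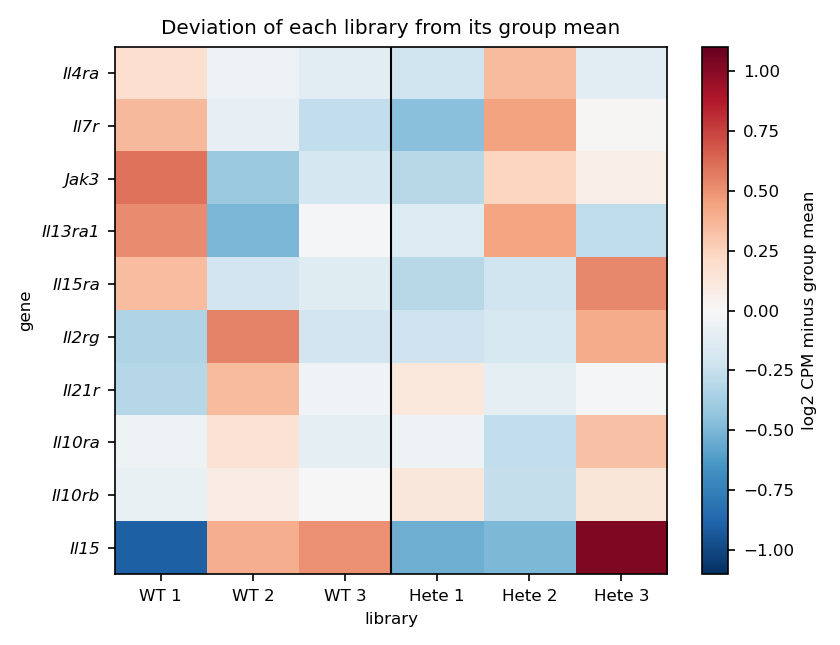
Colour gives the log2 CPM of each gene (rows) in each library (columns) minus the mean of its group, so that the difference between the groups is removed. Il4ra, Il7r, Jak3 and Il13ra1 are red in WT 1 and Hete 2, and Il2rg is red in WT 2 and Hete 3.

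By pattern of log2 CPM over the 6 libraries, the genes most like Il2rg among 11230 candidates were Cd300a (Pearson r = 0.999), C1qc (0.999), Fpr2 (0.999), C1qa (0.998) and Slfn2 (0.996). C1qa and C1qc encode chains of complement C1q, and Fpr2 a formyl peptide receptor of phagocytes. Their libraries did not overlap between the groups, with log2 fold changes of −1.34, −1.09, −2.45, −1.06 and −1.43 in that order. The direction and the lack of overlap follow largely from the choice by likeness to Il2rg and are no separate result. By deviations from the group means alone, Cd300a, an inhibitory receptor of myeloid cells, again came first (0.999), followed by Wdr41, Palm, Lpcat2 and Napg (all 0.996 after rounding). With 6 libraries and this many candidates, values this high are a ranking and carry no test.

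The other genes of the pathway, from fixed lists, were then counted. Of 10 further gamma chain ligands and receptor chains, 3 were tested and 0 passed the threshold; the median log2 fold change was −0.80. Il7, made by stromal cells, measured 0.914, 0.924 and 1.09 CPM against 0.291, 0.363 and 0.459 CPM, and Il2rb, the chain shared by interleukins 2 and 15, 11.6, 13.1 and 6.73 against 6.69, 6.11 and 5.16 CPM. Both were lower without overlap between the groups, as were 11.3% of all tested genes (edgeR adjusted p = 0.158 and 0.189). For Il2rb the gap was narrow, with 6.73 CPM in wild-type replicate 3 and 6.69 CPM in heterozygous replicate 1. Crlf2, the TSLP receptor chain that pairs with Il7r, did overlap (−0.39 ± 0.19). The ligand genes Il2, Il4 and Il21 had at most 4 counts in any library.

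Of 12 further genes of the interleukin 10 and 13 systems, 2 were tested and 0 passed. Il22ra1, the interleukin 22 receptor chain of hepatocytes that pairs with Il10rb, ranged from 4.75 to 14.8 CPM in wild-type and from 9.80 to 22.2 CPM in heterozygous livers (0.69 ± 0.49, edgeR adjusted p = 0.654), and Il20rb was at −0.16 ± 0.38. All 16 genes for kinases, STAT factors and inhibitors were tested, with 0 past the threshold, 4 lower and 0 higher at an unadjusted p under 0.05 (9.0% and 4.20% of all genes), and a median of −0.27. Ptpn6, a phosphatase of leukocyte receptors, was at −0.65 ± 0.18 (edgeR adjusted p = 0.135) and Socs1, a feedback inhibitor, at −1.04 ± 0.36. Jak1, Jak2 and Tyk2 lay between −0.12 and 0.04.

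Genes known to be induced by interleukins 4 and 13 had 7 of 12 members tested, 0 past the threshold and a median of −0.80. Clec10a, a lectin of macrophages and dendritic cells, was at −1.86 ± 0.39 (edgeR adjusted p = 0.0685), Chil3 at −2.89 ± 0.65 (0.0810) from 0 to 28 counts per library, and Ccl24 at −0.72 ± 0.32. Of 5 genes induced by interleukin 10, 1 passed the threshold as lower, beside 0.559% of all tested genes. It was Il1rn, the interleukin 1 receptor antagonist, from 8.84, 9.14 and 6.51 to 3.61, 3.87 and 3.44 CPM (−1.16 ± 0.20, edgeR adjusted p = 0.0494). The other 4 overlapped, among them Bcl3 (−0.63 ± 0.57), Nfil3 (−0.18 ± 0.32) and Sbno2 (−0.40 ± 0.23). Among 24 cytokine receptor chains outside these systems, 20 were tested. Of these, 15 had a negative log2 fold change (49.0% of all tested genes) and 1, Csf3r, passed the threshold as lower (0.559%). Their median was −0.51, near the −0.57 of the 10 genes. Ifngr1, a chain of the interferon gamma receptor, was at −0.57 ± 0.11 (edgeR adjusted p = 0.0539), Csf2ra at −1.09 ± 0.21 (0.0615) and Csf2rb2 at −1.30 ± 0.29 (0.0821).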

How the data were processed

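The authors deposited 1 table of unnormalized read counts, with a row for each gene symbol and a column for each library. RNA was extracted with TRIzol, and 500 ng went into stranded mRNA libraries, per the labels' protocols. Trimmomatic 0.36, HISAT2 2.2.1.0, HTSeq 0.9.1 and the build GRCm39 were used, per the submitters' processing notes; the annotation is not given in the sources used here, nor is the counter's strand setting.

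In R 4.3.3, edgeR 4.0.16 filtered genes (filterByExpr by group), scaled by TMM (factors 0.924 to 1.04) and tested heterozygous against wild-type livers with the robust quasi-likelihood test, adjusted by Benjamini-Hochberg over all tested genes at 0.05. The fit was tested on simulated data. Of 17119 symbols, 442 had no count. SE is the absolute log2 fold change over the square root of F. Log2 CPM used a prior count of 2. Alternatives were RLE scaling, no filter, DESeq2 1.42.0, limma-voom (limma 3.58.1, robust), a replicate block, each library left out, and wild-type replicate 1 with heterozygous replicate 2 left out.

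The genes and lists were chosen with earlier results of these data known. Named from each list were genes past the threshold and up to 3 others with the smallest p, and, for likeness to Il2rg, the 5 highest r at a mean log2 CPM of at least 1; further names were chosen after their values were seen. One gene that this rule names is not reported here. Lists were described by counts and medians without a set test.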

Additional observations from a re-analysis of the deposited data

How the results depend on the processing

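Over 12 alternatives, each of the 10 genes kept a negative log2 fold change, except Il15ra at 0.011 when both wild-type replicate 1 and heterozygous replicate 2 were left out. Il2rg passed the threshold in 3 of the 12 (no filter on low counts, DESeq2, and without heterozygous replicate 3), with adjusted p-values from 4.11e-06 to 0.218. The count of the 10 genes past the threshold, 1 as reported, was 0 with RLE scaling, 3 with no filter, 4 in DESeq2, 0 in limma-voom, 0 with the 2 libraries left out together, and 0 to 2 with 1 library left out. Over all genes, 71 lower and 3 higher as reported became 190 and 21 with no filter, 441 and 82 in DESeq2, 45 and 1 in limma-voom, and 4 and 0 with the 2 libraries left out. With each library left out in turn edgeR called 0 to 107 lower and 0 to 15 higher genes; the fits with 0 calls were those without heterozygous replicate 1 or 2, where 1104 and 1601 genes had an unadjusted p under 0.05. The cause of these shifts was not tested.

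Same-numbered libraries deviated from their group means with correlations of −0.21, −0.31 and 0.19 over genes, and were therefore not taken as pairs. With the replicate block edgeR called 0 genes lower and 0 higher, and 0 of the 10, with 1427 genes at an unadjusted p under 0.05; the log2 fold change of Il2rg was −1.65. Depth limits Il15, Il7r and Il21r most, at 8 to 97 counts per library.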

Other observations

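Il13ra2, the decoy receptor of interleukin 13, had 0 counts in each wild-type library and 4, 25 and 0 counts in heterozygous replicates 1, 2 and 3. It was too low to be tested and was named after its values were seen. Heterozygous replicate 2, which held most of these counts, was also the library with the highest Socs3.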
